A study of Sorghum bicolor with 14 samples.

Results

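In the stem of sweet sorghum (Sorghum bicolor, a cereal whose stem stores sucrose), 198 rows of the expression table that follow each other along the chromosomes were all at least 2-fold lower at booting than at floral initiation. They form 45 runs of 4 to 6 adjacent expressed rows, and hold 213 gene models, since 12 rows join several models. The runs were found by ordering the expressed, named rows of the development table along the chromosomes. A row counted as expressed when it reached 1 FPKM (a level of fragments scaled to transcript length and sequencing depth) at any stage, and of overlapping loci only the row with the highest mean was kept. This left 17167 rows. A run is any stretch of 4 or more adjacent rows that all had a change of -1 or lower in log2(FPKM + 1), booting minus floral initiation. Members make up 1.15% of the rows in order and 6.55% of the 3025 rows that were 2-fold lower.

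All samples are middle internodes of the variety CSV24SS. The 14 samples fall into 7 groups of 2. Plants of the development series grew in a watered soil bed with nitrogen fertiliser and were sampled at floral initiation (FI), at booting (B, with the panicle still in the flag leaf sheath), and at the milky stage (MS) and soft dough (SD) of grain filling. Plants of the drought series grew 1 to a pot, were not watered after the flag leaf stage and were sampled at booting, at soil moisture of about 13% (D1), 7% (D2) and 2% (D3). The labels name no group of watered pots, so dryness and time since watering cannot be told apart. The authors gave 1 value per gene and group, so no difference could be set against a spread between plants and no test was run. In whole internodes, fewer cells of a type and less RNA per cell cannot be told apart.

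Neighbouring plant genes can share expression for several known reasons. Tandem duplication leaves copies of a gene side by side, often with like promoters. Some pathways of defence compounds are encoded by clusters of unrelated enzyme genes, the dhurrin cluster of sorghum among them. Blocks of chromatin can also be open or closed over several genes at once. An internode has a zone of cell division at its base at first, then elongates, thickens its walls and, in sweet sorghum, fills with sugar, and many genes of growing tissue are known to become less active as this happens. The tables give identifiers without gene descriptions, so the members are described by identifier and position, without a family or role. Coordinates are those of the deposited table; no source used here names its genome build.

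The members were chosen by the difference between B and FI, so this difference is given as a description. The median level of the 198 members was 1.35 FPKM at B and 12.99 FPKM at FI. Their median change was -1.88 in log2(FPKM + 1), with 90 members at least 4-fold and 42 at least 8-fold lower. All folds counted here are on the log2(FPKM + 1) scale, which understates the change of weak genes. Of all rows in order 17.6% were 2-fold lower and 9.34% 2-fold higher, so that 65.3% of the changed rows were lower. After quantile normalization 55.1% of them were lower. The size of the set depends on the pseudocount: with 5 FPKM in place of 1 the rule finds 21 members in 5 runs, and with 0.1 FPKM 348 in 77. The other 2827 rows that were 2-fold lower had medians of 1.64 FPKM at B and 10.6 FPKM at FI, and a median change of -1.63. Levels at FI varied widely: 28 members had 100 FPKM or more at FI and 55 had less than 5 FPKM. At B, 91 members were under 1 FPKM and 17 were listed at 0. The rule itself requires at least 1 FPKM at FI, and 43 members reached that level at no other stage.

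**Figure D1:**
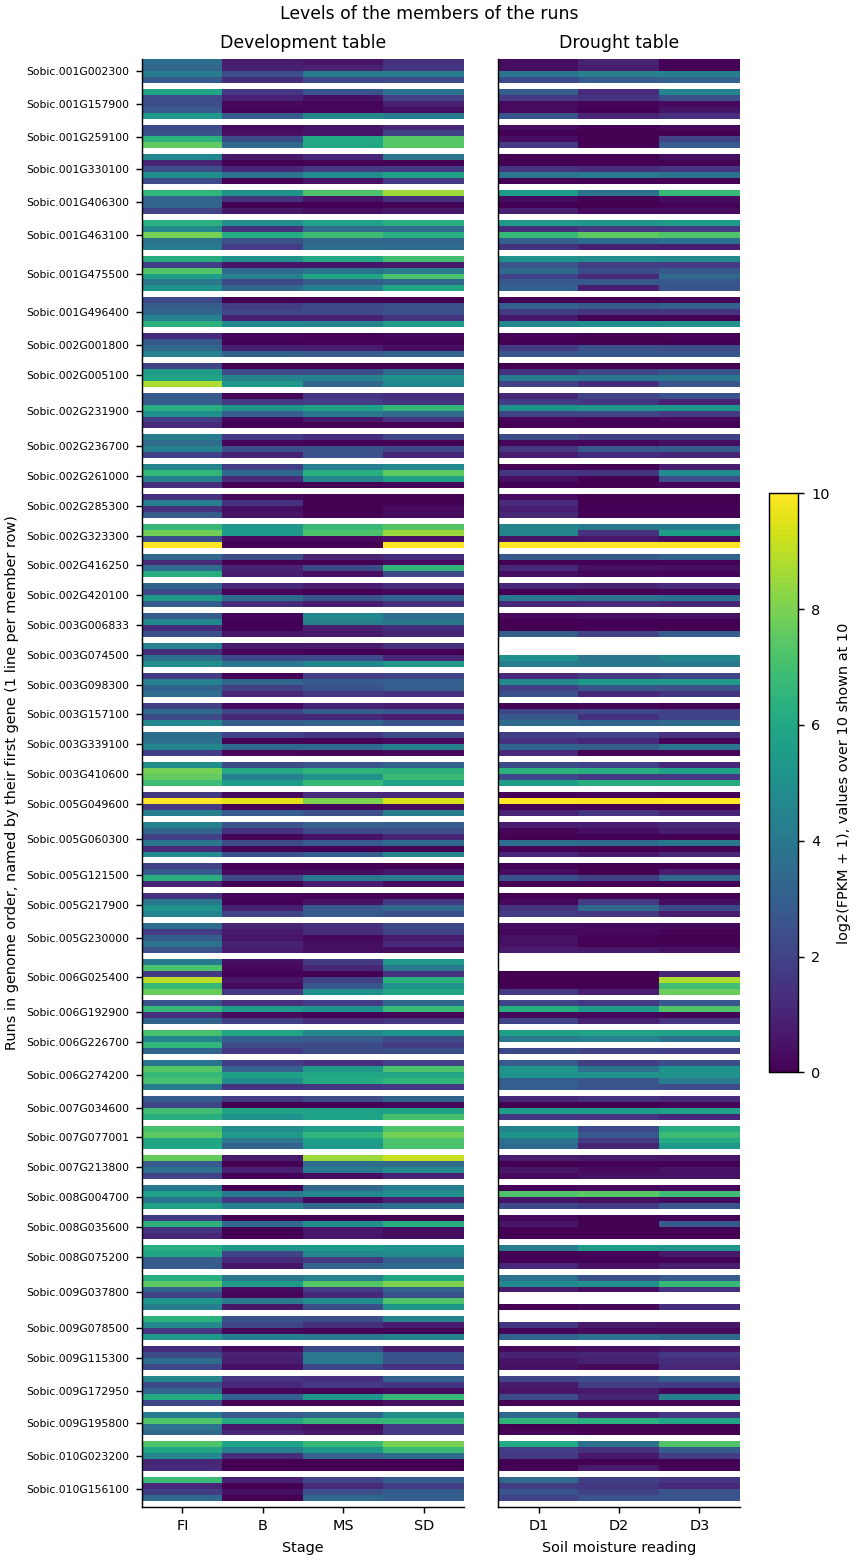
Level of each member as log2(FPKM + 1), 1 line per member, in genome order, with the runs separated by white lines and named by their first gene. The left panel holds the 4 stages and the right panel the 3 drought columns, which come from a separately normalised table. White cells are the 8 members with no match by name there. The B column is darker than the FI column in every run, as the rule requires, and the MS and SD columns differ from run to run.

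The runs lay on 9 of the 10 chromosomes. Chromosome 2 held 9 runs with 38 members, chromosome 1 held 8 with 38, and chromosome 3 held 6 with 24. Chromosomes 5 and 9 held 5 runs each, of 23 members each. Chromosome 6 held 4 runs (19 members), chromosomes 7 and 8 held 3 each (12 members each) and chromosome 10 held 2 (9 members). Chromosome 4 held no run, although 308 of its 2012 rows (15.3%) were 2-fold lower at B. On chromosome 5, the richest for its size, 22.01% of 854 rows were 2-fold lower and 2.69% were members.

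Of the 3025 rows that were 2-fold lower at B, 1250 (41.3%) stood directly beside another such row. The row that followed one of them was 2-fold lower too in 23.9% of cases, beside 17.6% over all rows. In the opposite direction, the 1604 rows that were 2-fold higher at B formed 4 runs of 18 rows by the same rule, and the row after one of them was higher too in 14.4%, beside 9.34%. More rows past the threshold make runs more frequent, so the comparison nearest in size is the useful one. At SD against FI, 16.2% of rows were 2-fold lower and formed 13 runs of 58 rows, while 11.2% were higher and formed 10 runs of 41 rows. That comparison has the FI column in common with the rule. In each of the other comparisons of consecutive stages or drought columns no more than 7.74% of rows moved 2-fold in 1 direction, and none gave more than 4 runs. For the drought columns the row order of the development table was kept, and shares here are over the 16652 rows matched by name. Rows unmatched or under 1 FPKM in drought stayed in that order and could break a run, so these counts of runs are not fully alike.

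**Figure D2:**
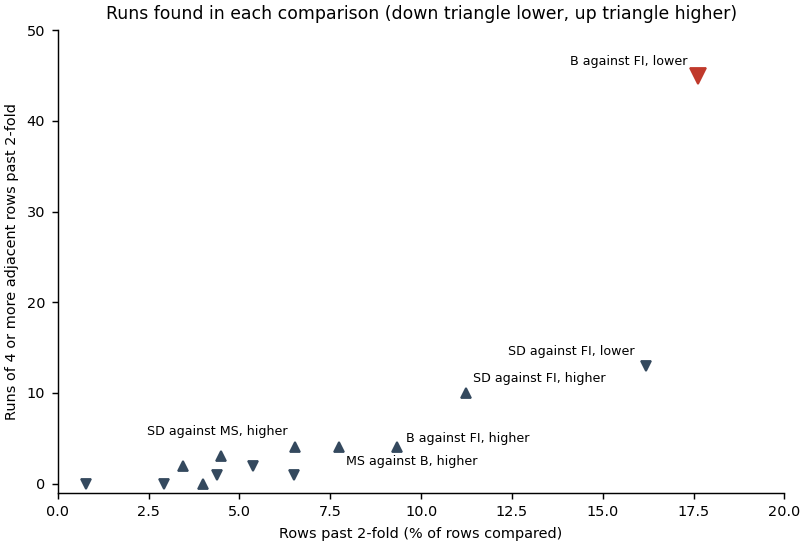
Runs of 4 or more adjacent rows past 2-fold (y axis) against the share of rows past 2-fold in the same direction (x axis, % of rows compared) for 7 comparisons in both directions. The red triangle is the comparison that chose the members, with 45 runs at 17.6% of rows. SD against FI, lower, had 13 runs at 16.2%.

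The runs spanned 7.36 to 431 kb, with a median of 60.8 kb. The distance between the loci of neighbouring members had a median of 8970 bases, compared with 6732.5 bases over all neighbouring rows of the 10 chromosomes. Adjacent here means adjacent among expressed rows. Inside 32 of the 45 runs lay named rows that were not in the order, 117 of them under 1 FPKM at every stage and 3 overlapping a higher row. The other 13 runs were unbroken series of named rows. The spans also held 19 rows without a gene name, of which 7 reached 1 FPKM, and 4 of these were 2-fold lower at B as well.

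The 90 places directly before or after a run had a median change of 0.25, and 31 of them (34.4%) were lower at B at all, compared with 39.5% of all rows that were not 2-fold lower. A border row cannot be 2-fold lower by the rule, so only these rows are comparable, and the values are a description. The members nearest the threshold were Sobic.001G330400 at -1.004, Sobic.009G115300 at -1.004 and Sobic.005G122400 at -1.02. The border rows nearest to it were Sobic.006G226601 at -0.97, Sobic.009G172600 and Sobic.006G274933, both at -0.93.

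**Figure D3:**
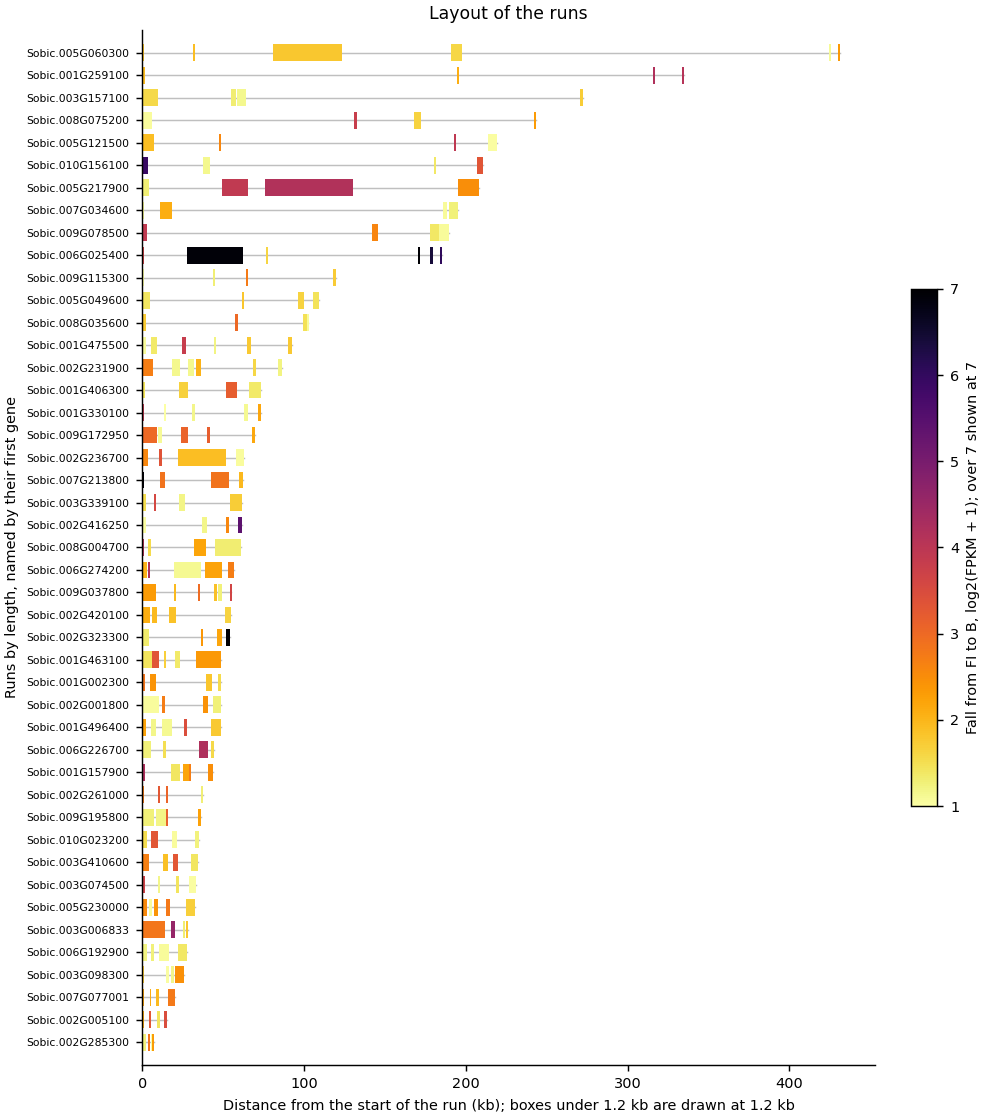
Layout of the 45 runs, drawn by distance from the start of each run in kb, with the shortest at the bottom. Each box is a member's locus and its colour is the size of the change at B relative to FI in log2(FPKM + 1), with darker boxes for larger decreases. The shortest run, at Sobic.002G285300, spans 7.36 kb and the longest, at Sobic.005G060300, 431 kb. Large and small decreases lie beside each other within runs.

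The run with the lowest median change at B (-6.22) lay on chromosome 6. Its 6 rows from Sobic.006G025400 to Sobic.006G026100 (chromosome 6, 4498652 to 4684050) summed to 3.37 FPKM at B and 966 FPKM at FI, and held 3 of the 5 largest decreases of all members. Sobic.006G025900 had 496 FPKM at FI, 0.422 at B, 2.78 at MS and 82.5 at SD, a change of -8.45. Sobic.006G026100 had 205 FPKM at FI, 2.13 at B, 30.8 at MS and 57.4 at SD (-6.04). Both were at their lowest at B and at SD still below their level at FI. Sobic.006G026000 had 104 FPKM at FI, 0.236 at B, 5.48 at MS and 35.5 at SD. The row that joins Sobic.006G025500, Sobic.006G025600 and Sobic.006G025700 had 143 FPKM at FI, 0.184 at B, 1.08 at MS and 14.7 at SD, and Sobic.006G025400 had 15.8 FPKM at FI, 0.331 at B, 2.21 at MS and 42.0 at SD. Sobic.006G025400 was the only row of the run with a higher level at SD than at FI. Sobic.006G025800 was weak throughout, with 2.28 FPKM at FI, 0.0616 at B, 0 at MS and 1.72 at SD. In the drought table, 4 of the 6 rows could be matched by name. Sobic.006G025900 had 0 FPKM in D1, 0.0431 in D2 and 439 in D3, Sobic.006G026000 had 0.00960 FPKM in D1, 0.0239 in D2 and 122 in D3 and Sobic.006G026100 had 2.198 FPKM in D1, 0.795 in D2 and 214 in D3. Sobic.006G025800 was listed at 0 in D1 and D2 and had 1.09 FPKM in D3. All 4 were under 3 FPKM in D1 and D2, and Sobic.006G025900, Sobic.006G026000 and Sobic.006G026100 had over 100 FPKM in D3. Each of these is a single value, so how far plants at D3 vary is not known.

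On chromosome 7, 4 rows within 20.5 kb (chromosome 7, 8904277 to 8924806) were all lower at B than at FI, higher at SD than at MS, lower in D2 than in D1 and higher in D3 than in D2, each by at least 2-fold. Sobic.007G077001 had 135 FPKM at FI, 28.7 at B, 47.4 at MS and 152 at SD, and 21.4 FPKM in D1, 3.73 in D2 and 72.0 in D3. Sobic.007G077100, the most abundant, had 176 FPKM at FI, 40.2 at B, 98.3 at MS and 237 at SD, and 35.6 FPKM in D1, 5.81 in D2 and 116 in D3. Each was lowest in its table at B and at D2. Sobic.007G077200 had 60.2 FPKM at FI, 14.7 at B, 49.5 at MS and 140.0 at SD, and 12.1 FPKM in D1, 2.39 in D2 and 70.1 in D3. Sobic.007G077300 had 58.9 FPKM at FI, 7.85 at B, 40.3 at MS and 144 at SD, and 10.2 FPKM in D1, 1.06 in D2 and 40.6 in D3. The changes at B lay between -2.76 and -1.96, those of SD minus MS between 1.26 and 1.81, those of D2 minus D1 between -2.44 and -1.95 and those of D3 minus D2 between 3.95 and 4.39. No other run had all of its members 2-fold higher at SD than at MS. No named or unnamed row lay between its members. If these neighbours are near-identical copies, the authors' counting could have split reads among them, and this was not tested.

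The chromosome 9 run at Sobic.009G037800 (chromosome 9, 3551576 to 3606537) had 6 rows that were lowest at B and 5 that were 2-fold higher at SD than at MS. Sobic.009G038000 had 175 FPKM at FI, 44.6 at B, 164 at MS and 266 at SD, and 26.7 FPKM in D1, 32.1 in D2 and 108 in D3. Sobic.009G037800 had 73.5 FPKM at FI, 14.0 at B, 19.6 at MS and 62.5 at SD, and 12.6 FPKM in D1, 4.65 in D2 and 6.29 in D3. These were the most abundant rows at FI, and they parted at D3, which was the highest drought column for Sobic.009G038000 and not for Sobic.009G037800. Sobic.009G038300, not matched by name in the drought table, had 36.7 FPKM at FI, 14.6 at B, 27.9 at MS and 150.1 at SD and so was 4.09 times its FI level at SD. Sobic.009G038401 had 18.2 FPKM at FI, 0.551 at B, 4.31 at MS and 38.5 at SD, and 0 FPKM in D1, 0.170 in D2 and 1.49 in D3. Sobic.009G038100 had 8.42 FPKM at FI, 0.220 at B, 2.54 at MS and 8.33 at SD, and 0.631 FPKM in D1, 0.262 in D2 and 1.70 in D3. Sobic.009G038200, the weakest and also without a match in the drought table, had 3.199 FPKM at FI, 0.142 at B, 1.21 at MS and 4.58 at SD. None of the 6 rows was 2-fold below its FI level at SD.

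The chromosome 1 run at Sobic.001G475500 (chromosome 1, 74783314 to 74876003) joined rows with different later courses. Sobic.001G475800 had 157 FPKM at FI, 10.2 at B, 13.7 at MS and 17.3 at SD, and 9.95 FPKM in D1, 3.95 in D2 and 6.14 in D3. It stayed low after B. Sobic.001G475500 had 73.7 FPKM at FI, 34.2 at B, 68.7 at MS and 125 at SD, and 33.7 FPKM in D1, 29.0 in D2 and 24.98 in D3. Sobic.001G476100 had 46.1 FPKM at FI, 19.3 at B, 61.7 at MS and 144 at SD, and 3.03 FPKM in D1, 1.36 in D2 and 10.1 in D3. Both were above their FI level at SD, but D3 was the lowest drought column of Sobic.001G475500 and the highest of Sobic.001G476100. Sobic.001G476400, too, was above its FI level at SD, with 33.4 FPKM at FI, 9.14 at B, 18.3 at MS and 61.9 at SD, and 7.56 FPKM in D1, 0.812 in D2 and 5.06 in D3. Sobic.001G476300 had 14.6 FPKM at FI, 3.57 at B, 6.67 at MS and 9.01 at SD, and 5.70 FPKM in D1, 6.201 in D2 and 5.61 in D3. Sobic.001G475600 had 2.76 FPKM at FI, 0.464 at B, 0.477 at MS and 0.543 at SD, and 5.27 FPKM in D1, 2.65 in D2 and 2.31 in D3. It was higher in D1 than at any stage of the development table, although levels in the 2 tables were normalised separately.

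On chromosome 2, the run of 6 rows at Sobic.002G231900 (chromosome 2, 62309505 to 62395752) was led by Sobic.002G232400, with 74.2 FPKM at FI, 32.8 at B, 52.3 at MS and 97.9 at SD, and 33.2 FPKM in D1, 37.8 in D2 and 37.9 in D3. Sobic.002G232500 had 31.8 FPKM at FI, 6.98 at B, 15.2 at MS and 10.1 at SD, and 3.28 FPKM in D1, 3.29 in D2 and 2.23 in D3. Among the 6 rows, only Sobic.002G232400 was above its FI level at SD. Sobic.002G232200 had 6.23 FPKM at FI, 2.27 at B, 2.54 at MS and 1.85 at SD, and 2.60 FPKM in D1, 1.97 in D2 and 0.937 in D3. Sobic.002G231900 had 6.204 FPKM at FI, 0.104 at B, 1.84 at MS and 1.45 at SD, and 1.09 FPKM in D1, 2.97 in D2 and 4.69 in D3. These neighbours of about equal level at FI differed in drought, where Sobic.002G231900 was higher at each drier reading and Sobic.002G232200 lower. Sobic.002G232800 had 2.47 FPKM at FI, 0.156 at B, 0.581 at MS and 1.68 at SD, and Sobic.002G232900 had 1.33 FPKM at FI, 0 at B, 0 at MS and 0.00759 at SD. Neither passed 0.173 FPKM in a drought column.

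The widest run, at Sobic.005G060300 on chromosome 5 (chromosome 5, 6223019 to 6654023), held 6 rows over 431 kb, with 5 rows under 1 FPKM between them. Sobic.005G061200 had 27.02 FPKM at FI, 4.48 at B, 6.84 at MS and 22.7 at SD, and 1.24 FPKM in D1, 0.623 in D2 and 1.14 in D3. Sobic.005G060300 had 19.8 FPKM at FI, 4.85 at B, 7.46 at MS and 6.54 at SD, and 0.798 FPKM in D1, 0.791 in D2 and 1.205 in D3. The row of Sobic.005G061000 and Sobic.005G061033 had 14.3 FPKM at FI, 4.07 at B, 6.31 at MS and 9.77 at SD, and 11.3 FPKM in D1, 10.6 in D2 and 15.4 in D3. It was the only row of the 6 above 1.24 FPKM in a drought column. Sobic.005G060400 had 8.51 FPKM at FI, 1.55 at B, 3.85 at MS and 4.45 at SD, the row of Sobic.005G060666 and Sobic.005G060700 had 2.76 FPKM at FI, 0.0873 at B, 0.4002 at MS and 1.11 at SD and Sobic.005G061100 had 1.26 FPKM at FI, 0.0442 at B, 0.0134 at MS and 0.0964 at SD.

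**Figure D4:**
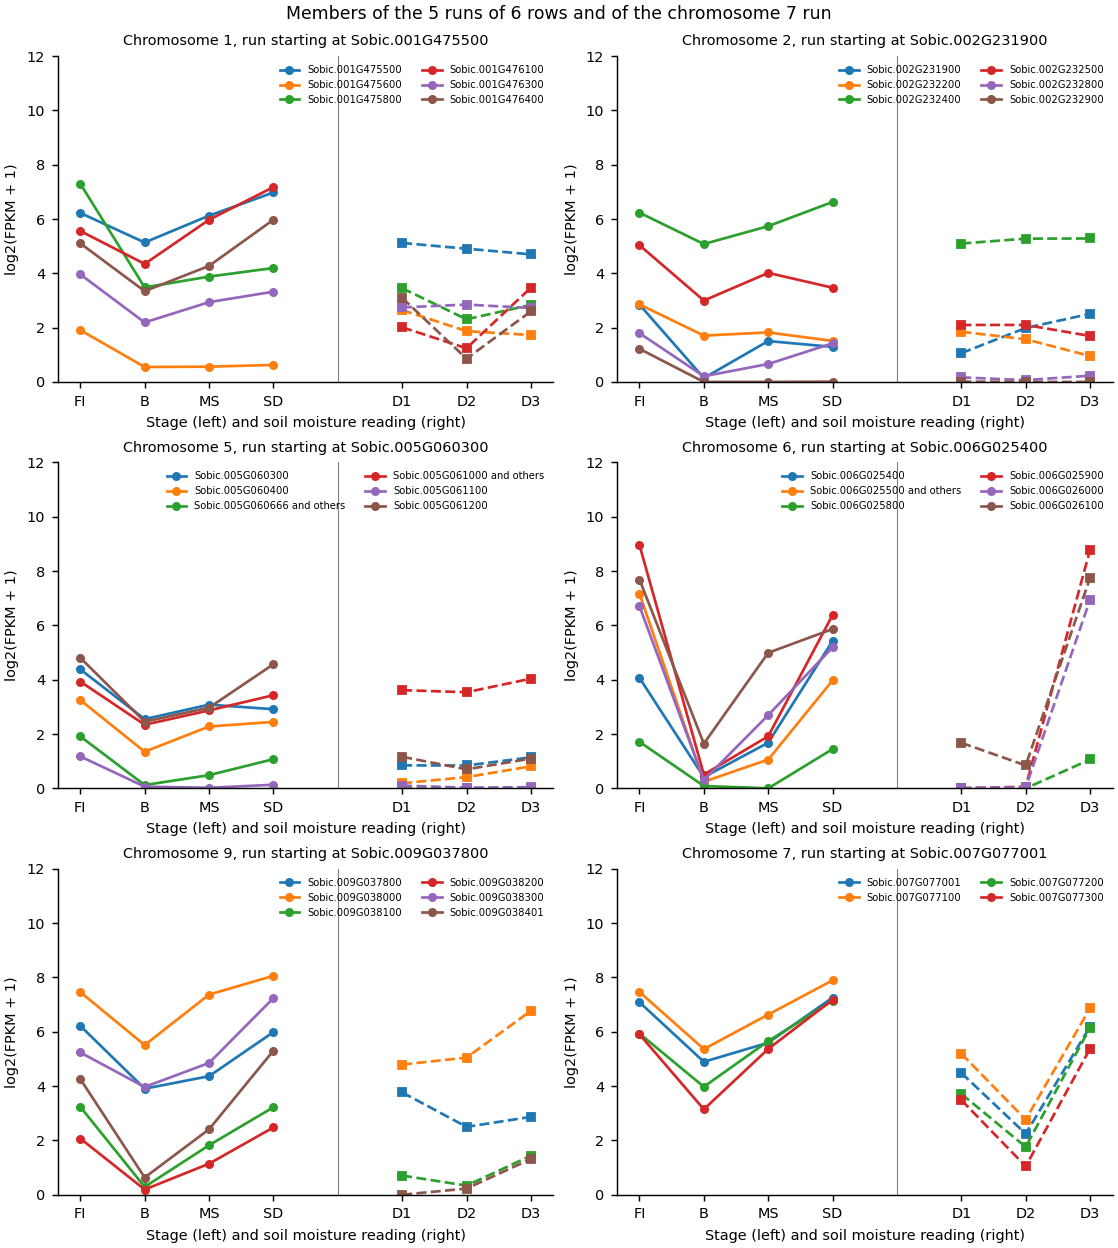
Levels as log2(FPKM + 1) of each member of the 5 runs of 6 rows and of the chromosome 7 run at Sobic.007G077001, over the 4 stages (circles, solid lines) and the 3 drought columns (squares, dashed lines, normalised separately). Each line is 1 row. The 4 rows of the chromosome 7 run keep nearly parallel lines, and 3 of the 4 matched rows of the chromosome 6 run are high at FI and D3 and low at B, D1 and D2, while Sobic.006G025800 is weak throughout.

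The largest summed level at FI belonged to the chromosome 2 run at Sobic.002G323300 (chromosome 2, 69450100 to 69504021), and 1 row sets it. Sobic.002G324200 (chromosome 2, 69501545 to 69504021) was listed at 12502 FPKM at FI, at 0 at B, at 0 at MS and at 13868 FPKM at SD. In the drought table it had 6377 FPKM in D1, 15546 in D2 and 12776 in D3. Among 111 named rows that passed 1000 FPKM at some stage, it was 1 of 2 that were listed at 0 at another. A value of 0 in a table without read counts can be an estimate that failed, so no fold is given and the row's place among the members is uncertain. Without it the run would have 3 rows and would not be counted. Its neighbours Sobic.002G323900 and Sobic.002G323300 do not depend on it. Sobic.002G323900 had 225 FPKM at FI, 42.5 at B, 142 at MS and 362 at SD, and Sobic.002G323300 had 101 FPKM at FI, 39.1 at B, 107 at MS and 157 at SD. In drought Sobic.002G323900 had 22.2 FPKM in D1, 1.72 in D2 and 50.4 in D3, low at D2 and highest at D3. Sobic.002G323300 had 22.7 FPKM in D1, 15.3 in D2 and 17.8 in D3. Sobic.002G324100 had 4.32 FPKM at FI, 0.180 at B, 0.180 at MS and 0.410 at SD, and 0.427 FPKM in D1, 0.548 in D2 and 0.291 in D3.

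The chromosome 5 run at Sobic.005G049600 (chromosome 5, 4708346 to 4817384) also had 1 very abundant row. Sobic.005G050200 had 2613 FPKM at FI, 745 at B, 259.7 at MS and 674 at SD, a 3.51-fold lower level at B than at FI, and 1031 FPKM in D1, 965 in D2 and 1094 in D3. It was lowest at MS and nearly level over the drought columns. Sobic.005G049600 had 2.28 FPKM at FI, 0.223 at B, 1.26 at MS and 1.22 at SD, and 0.0662 FPKM in D1, 0.0903 in D2 and 0.0653 in D3. Sobic.005G050300 had 2.15 FPKM at FI, 0.0149 at B, 0.1003 at MS and 0.221 at SD, and 0.0296 FPKM in D1, 0 in D2 and 0.00457 in D3. Sobic.005G050400 had 18.9 FPKM at FI, 6.22 at B, 4.28 at MS and 17.8 at SD, and 0.882 FPKM in D1, 1.83 in D2 and 0.942 in D3. On chromosome 3, the run at Sobic.003G410600 (chromosome 3, 71794613 to 71828990) was an unbroken series of 4 abundant genes. Sobic.003G410700 had 240.0 FPKM at FI, 64.4 at B, 89.5 at MS and 84.2 at SD. Sobic.003G410800 had 195 FPKM at FI, 19.2 at B, 33.7 at MS and 111 at SD. Sobic.003G410900 had 118 FPKM at FI, 43.8 at B, 104 at MS and 53.3 at SD, and Sobic.003G410600 had 29.97 FPKM at FI, 3.86 at B, 5.17 at MS and 7.73 at SD. All 4 had less at SD than at FI. In drought Sobic.003G410800 had 3.35 FPKM in D1, 2.25 in D2 and 2.15 in D3, and Sobic.003G410700 had 85.2 FPKM in D1, 77.9 in D2 and 52.9 in D3. Sobic.003G410900 had 47.5 FPKM in D1, 74.4 in D2 and 72.7 in D3, and Sobic.003G410600 had 3.99 FPKM in D1, 3.05 in D2 and 1.23 in D3. Sobic.003G410900 was thus the only one of the 4 that was higher in D3 than in D1. 

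The chromosome 2 run at Sobic.002G005100 (chromosome 2, 546826 to 562009) held 4 genes within 15.2 kb. Sobic.002G005400 had 435 FPKM at FI, 38.1 at B, 8.73 at MS and 23.1 at SD, 1 of the largest lasting decreases, with a change of -4.17 for SD minus FI. In drought it had 2.92 FPKM in D1, 1.45 in D2 and 4.998 in D3. Sobic.002G005300 had 56.3 FPKM at FI, 20.3 at B, 19.2 at MS and 30.2 at SD, and 16.1 FPKM in D1, 14.1 in D2 and 14.9 in D3. Sobic.002G005200 had 44.5 FPKM at FI, 3.65 at B, 4.35 at MS and 11.1 at SD, and 1.73 FPKM in D1, 3.52 in D2 and 5.10 in D3. Sobic.002G005100, listed at 0 at B, had 3.24 FPKM at FI, 0 at B, 0 at MS and 0.0211 at SD, and 0 FPKM in D1, 0 in D2 and 0 in D3.

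Some members were low at B alone among the stages. In the chromosome 7 run at Sobic.007G213800 (chromosome 7, 64257506 to 64319480), Sobic.007G213800 had 199.7 FPKM at FI, 0.628 at B, 358 at MS and 572 at SD, and 0.773 FPKM in D1, 0.620 in D2 and 0.513 in D3. It thus stayed under 1 FPKM at booting both in the soil bed and in the pots. The row of Sobic.007G214400 and Sobic.007G214600 had 12.6 FPKM at FI, 0.873 at B, 16.1 at MS and 27.3 at SD, and 0.528 FPKM in D1, 0.230 in D2 and 0.397 in D3. The row of Sobic.007G214050 and Sobic.007G214175 had 6.29 FPKM at FI, 0 at B, 11.02 at MS and 9.90 at SD, and was listed at 0 in all 3 drought columns. A like course was seen on chromosome 3 in the run at Sobic.003G006833 (chromosome 3, 595202 to 623367). There Sobic.003G006900 had 24.0 FPKM at FI, 0.0533 at B, 19.4 at MS and 14.6 at SD and was listed at 0 in all drought columns, and Sobic.003G006833 had 6.62 FPKM at FI, 0.0849 at B, 23.5 at MS and 10.8 at SD, and 0.199 FPKM in D1, 0.316 in D2 and 0.375 in D3. These 5 rows were therefore under 1 FPKM at booting in the soil bed and in the pots, and above 6 FPKM at the other 3 stages. Sobic.003G007200 differed from its neighbours, with 4.40 FPKM at FI, 0.537 at B, 0.622 at MS and 1.02 at SD but 6.66 FPKM in D1, 2.97 in D2 and 6.88 in D3. In the chromosome 9 run at Sobic.009G115300 (chromosome 9, 45636126 to 45755567), MS was the highest stage for 3 of 4 rows: Sobic.009G115500 had 10.996 FPKM at FI, 0.778 at B, 16.6 at MS and 5.29 at SD, Sobic.009G115400 had 3.76 FPKM at FI, 0.946 at B, 14.4 at MS and 4.68 at SD and Sobic.009G115300 had 1.501 FPKM at FI, 0.247 at B, 3.73 at MS and 0.712 at SD. The fourth, Sobic.009G115600, had 3.58 FPKM at FI, 0.376 at B, 3.52 at MS and 1.67 at SD. This run held 3 of the 6 members that were 2-fold lower at SD than at MS.

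In a further 4 runs some abundant members were low at B, near or above their FI level at SD and lowest of the drought columns at D2. This course was not limited to them: Sobic.001G406300, Sobic.006G193000, Sobic.008G036000 and Sobic.009G173300 of other runs, given below, had it too. On chromosome 1, Sobic.001G259600 had 85.2 FPKM at FI, 3.78 at B, 67.1 at MS and 163 at SD, and 0.292 FPKM in D1, 0.0164 in D2 and 2.82 in D3. Beside it, Sobic.001G259700 had 186 FPKM at FI, 10.1 at B, 61.9 at MS and 163 at SD, and 2.43 FPKM in D1, 0 in D2 and 6.46 in D3. Their run, at Sobic.001G259100 (chromosome 1, 31011170 to 31346119), is 1 of the widest, with 4 rows under 1 FPKM between its members. On chromosome 2, the run at Sobic.002G261000 (chromosome 2, 64609749 to 64647055) held Sobic.002G261100, with 96.8 FPKM at FI, 9.05 at B, 78.5 at MS and 180.1 at SD, and 2.10 FPKM in D1, 1.86 in D2 and 27.9 in D3. Its neighbour Sobic.002G261200 had 18.8 FPKM at FI, 1.35 at B, 23.7 at MS and 50.3 at SD, and 0.295 FPKM in D1, 0.0225 in D2 and 4.09 in D3. On chromosome 10, the run at Sobic.010G023200 (chromosome 10, 1887482 to 1922732) held Sobic.010G023200, with 150.4 FPKM at FI, 51.5 at B, 109 at MS and 253 at SD, and 68.0 FPKM in D1, 11.9 in D2 and 153 in D3. Sobic.010G023300 had 58.0 FPKM at FI, 19.5 at B, 39.3 at MS and 110.0 at SD, and 2.59 FPKM in D1, 1.68 in D2 and 6.59 in D3. On chromosome 6, Sobic.006G274300 of the run at Sobic.006G274200 (chromosome 6, 60547685 to 60604477) had 157 FPKM at FI, 7.96 at B, 40.5 at MS and 139 at SD, and 36.1 FPKM in D1, 12.6 in D2 and 33.2 in D3. Not every abundant member of these runs was lowest at D2. The row of Sobic.006G274400, Sobic.006G274500 and Sobic.006G274600, with 110 FPKM at FI, had 33.1 FPKM in D1, 33.2 in D2 and 31.5 in D3. Sobic.002G261000, with 23.1 FPKM at FI, had 0 FPKM in D1, 0.0413 in D2 and 0.688 in D3. In each of these runs another member was not near its FI level at SD: Sobic.001G259100, Sobic.002G261300, Sobic.010G023400 and Sobic.006G274866 were 2-fold lower at SD than at FI.

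All members were 2-fold lower at SD than at FI in 3 runs. The most compact of these, and of all runs, was at Sobic.002G285300 on chromosome 2 (chromosome 2, 66547712 to 66555074), with 4 genes in 7.36 kb. Sobic.002G285450 had 18.5 FPKM at FI, 1.71 at B, 0.0486 at MS and 0.0405 at SD, and 1.31 FPKM in D1, 0.0260 in D2 and 0 in D3. Sobic.002G285600 had 6.39 FPKM at FI, 0.475 at B, 0 at MS and 0.261 at SD, and 1.12 FPKM in D1, 0 in D2 and 0 in D3. All 4 genes of the run were under 0.1 FPKM at MS and in D2 and D3. The run at Sobic.002G420100 (chromosome 2, 76736294 to 76791089) was led by Sobic.002G420300, with 40.0 FPKM at FI, 10.3 at B, 5.10 at MS and 7.77 at SD, and 14.2 FPKM in D1, 12.8 in D2 and 11.6 in D3. In the run at Sobic.005G217900 (chromosome 5, 70394963 to 70603175), the row of Sobic.005G218400 and Sobic.005G218700 had 32.8 FPKM at FI, 0.891 at B, 6.26 at MS and 9.04 at SD, and 1.86 FPKM in D1, 9.27 in D2 and 3.60 in D3. Its neighbour Sobic.005G218201 had 14.8 FPKM at FI, 0.0407 at B, 0.377 at MS and 2.22 at SD, and 0.160 FPKM in D1, 2.37 in D2 and 0.304 in D3. These are 2 of the 6 members that were 2-fold higher in D2 than in D1, and both were 2-fold lower again in D3 than in D2.

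Single members showed the extremes among the later stages. The highest level at SD relative to FI was that of Sobic.002G416600 (chromosome 2, 76400758 to 76402443), with 10.6 FPKM at FI, 0.927 at B, 3.87 at MS and 97.1 at SD, and 1.197 FPKM in D1, 0.341 in D2 and 0.298 in D3. Sobic.002G416700 directly after it had 72.0 FPKM at FI, 0.710 at B, 0.345 at MS and 3.66 at SD. These neighbours were both low at B and differed at SD. Next highest were Sobic.009G038300, given above, and Sobic.001G406300 (chromosome 1, 69064227 to 69066183), with 94.2 FPKM at FI, 34.4 at B, 149 at MS and 368 at SD, and 44.3 FPKM in D1, 12.3 in D2 and 103 in D3. The lowest relative to FI was the row of Sobic.006G227200 and Sobic.006G227300 (chromosome 6, 57202848 to 57208271), with 95.6 FPKM at FI, 4.23 at B, 3.81 at MS and 2.46 at SD and no match in the drought table, followed by Sobic.002G285450 and Sobic.002G005400. Sobic.010G156100 (chromosome 10, 45980506 to 45984309) had 113 FPKM at FI, 0.874 at B, 3.26 at MS and 7.06 at SD, and 10.03 FPKM in D1, 2.70 in D2 and 1.96 in D3. It had the largest decrease from D1 to D3 of the members, -1.90, followed by Sobic.009G195800 and Sobic.003G339200. Sobic.009G195800 had 16.4 FPKM at FI, 6.28 at B, 8.95 at MS and 29.9 at SD, and 9.29 FPKM in D1, 1.196 in D2 and 2.196 in D3. Sobic.003G339200 had 12.1 FPKM at FI, 0.109 at B, 0.0817 at MS and 0.182 at SD, and 1.70 FPKM in D1, 1.24 in D2 and 0.0860 in D3.

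The remaining runs are given by their range and their leading row. On chromosome 1 there were 5 of these. The run at Sobic.001G002300 (chromosome 1, 211480 to 260238) ranged over 0.713 to 4.26 FPKM at B, against 6.25 to 17.5 FPKM at FI. The strongest row at FI, Sobic.001G002600, had 17.5 FPKM at FI, 4.26 at B, 17.2 at MS and 17.8 at SD, and 13.6 FPKM in D1, 19.7 in D2 and 18.4 in D3. At SD, 2 were at least 2-fold below FI and 2 were within 2-fold of it. At Sobic.001G157900 (chromosome 1, 12796084 to 12839967), 5 rows had 0.0669 to 6.19 FPKM at B, against 4.07 to 56.5 FPKM at FI. Its most abundant member at FI, Sobic.001G157900, had 56.5 FPKM at FI, 2.11 at B, 5.05 at MS and 12.2 at SD, and 7.22 FPKM in D1, 1.37 in D2 and 20.4 in D3. Among the 5 rows, 4 were 2-fold lower at SD than at FI. In the run at Sobic.001G330100 (chromosome 1, 61774686 to 61848142) the 5 rows had 0 to 12.99 FPKM at B, against 1.03 to 29.8 FPKM at FI. The row with the most at FI, Sobic.001G330700, had 29.8 FPKM at FI, 12.99 at B, 28.7 at MS and 53.5 at SD, and 14.3 FPKM in D1, 16.5 in D2 and 13.1 in D3. By SD 4 were within 2-fold of FI and 1 was 2-fold below it. The 5 rows of the run at Sobic.001G463100 (chromosome 1, 73733229 to 73782185) had 1.70 to 72.8 FPKM at B, against 13.2 to 238 FPKM at FI. Its leading row, Sobic.001G463400, had 238 FPKM at FI, 72.8 at B, 113 at MS and 76.2 at SD, and 103 FPKM in D1, 183 in D2 and 153 in D3. At SD, 2 were at least 2-fold below FI and 3 were within 2-fold of it. The run at Sobic.001G496400 (chromosome 1, 76635694 to 76684214) ranged over 0 to 24.5 FPKM at B, against 3.71 to 85.4 FPKM at FI. Its row with the highest FI level, Sobic.001G496800, had 85.4 FPKM at FI, 24.5 at B, 21.1 at MS and 44.2 at SD, and 24.3 FPKM in D1, 28.7 in D2 and 32.0 in D3. Among the 5 rows, 2 were 2-fold lower at SD than at FI.

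Chromosomes 2 and 3 held 6 more. The run at Sobic.002G001800 (chromosome 2, 262197 to 310734) ranged over 0.0283 to 7.54 FPKM at B, against 1.27 to 19.5 FPKM at FI. The strongest row at FI, Sobic.002G002100, had 19.5 FPKM at FI, 7.54 at B, 6.37 at MS and 8.08 at SD, and 5.08 FPKM in D1, 5.69 in D2 and 5.61 in D3. By SD 1 was within 2-fold of FI and 3 were 2-fold below it. At Sobic.002G236700 (chromosome 2, 62733405 to 62796274), 4 rows had 0.129 to 4.49 FPKM at B, against 3.04 to 19.4 FPKM at FI. Its most abundant member at FI, the row of Sobic.002G237200 and Sobic.002G237400, had 19.4 FPKM at FI, 4.49 at B, 4.83 at MS and 3.51 at SD, and 2.01 FPKM in D1, 5.58 in D2 and 6.55 in D3. At SD, 3 were at least 2-fold below FI and 1 was within 2-fold of it. In the run at Sobic.003G074500 (chromosome 3, 6339761 to 6373101) the 4 rows had 0.103 to 13.9 FPKM at B, against 1.47 to 29.8 FPKM at FI. The row with the most at FI, Sobic.003G074900, had 29.8 FPKM at FI, 13.9 at B, 22.3 at MS and 40.0 at SD, and 18.0 FPKM in D1, 15.7 in D2 and 15.5 in D3. Among the 4 rows, 3 were 2-fold lower at SD than at FI. The 4 rows of the run at Sobic.003G098300 (chromosome 3, 8680181 to 8706200) had 0.0413 to 9.34 FPKM at B, against 2.45 to 20.1 FPKM at FI. Its leading row, Sobic.003G098500, had 20.1 FPKM at FI, 9.34 at B, 6.27 at MS and 6.996 at SD, and 26.9 FPKM in D1, 42.5 in D2 and 41.4 in D3. By SD 2 were within 2-fold of FI and 2 were 2-fold below it. The run at Sobic.003G157100 (chromosome 3, 17531481 to 17804049) ranged over 0.239 to 6.64 FPKM at B, against 2.72 to 24.0 FPKM at FI. Its row with the highest FI level, Sobic.003G157700, had 24.0 FPKM at FI, 6.64 at B, 8.21 at MS and 4.73 at SD, and 10.4 FPKM in D1, 8.26 in D2 and 10.03 in D3. At SD, 3 were at least 2-fold below FI and 1 was within 2-fold of it. At Sobic.003G339100 (chromosome 3, 66213342 to 66274797), 4 rows had 0.1003 to 9.58 FPKM at B, against 2.64 to 23.3 FPKM at FI. Its most abundant member at FI, Sobic.003G339500, had 23.3 FPKM at FI, 9.58 at B, 10.3 at MS and 19.5 at SD, and 8.29 FPKM in D1, 6.76 in D2 and 13.4 in D3. Among the 4 rows, 3 were 2-fold lower at SD than at FI.

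A further 4 lay on chromosomes 5, 6 and 7. The run at Sobic.005G121500 (chromosome 5, 53534100 to 53753266) ranged over 0.0160 to 3.99 FPKM at B, against 1.11 to 75.4 FPKM at FI. The strongest row at FI, Sobic.005G122300, had 75.4 FPKM at FI, 3.99 at B, 14.9 at MS and 16.4 at SD, and 4.71 FPKM in D1, 2.76 in D2 and 9.31 in D3. By SD 1 was within 2-fold of FI and 3 were 2-fold below it. At Sobic.005G230000 (chromosome 5, 71680490 to 71712954), 5 rows had 0.467 to 1.02 FPKM at B, against 2.34 to 12.8 FPKM at FI. Its most abundant member at FI, Sobic.005G230300, had 12.8 FPKM at FI, 1.02 at B, 0.292 at MS and 1.28 at SD, and 0.347 FPKM in D1, 0.0373 in D2 and 0.0388 in D3. At SD, 4 were at least 2-fold below FI and 1 was within 2-fold of it. In the run at Sobic.006G192900 (chromosome 6, 54650805 to 54678483) the 4 rows had 0.199 to 40.6 FPKM at B, against 1.55 to 100.05 FPKM at FI. The row with the most at FI, Sobic.006G193000, had 100.05 FPKM at FI, 40.6 at B, 31.5 at MS and 107 at SD, and 74.2 FPKM in D1, 40.5 in D2 and 157 in D3. Among the 4 rows, 2 were 2-fold lower at SD than at FI. The 4 rows of the run at Sobic.007G034600 (chromosome 7, 3027545 to 3222717) had 0 to 55.7 FPKM at B, against 3.27 to 119.6 FPKM at FI. Its leading row, Sobic.007G035600, had 119.6 FPKM at FI, 55.7 at B, 50.8 at MS and 52.6 at SD, and 46.7 FPKM in D1, 43.4 in D2 and 52.3 in D3. By SD 2 were within 2-fold of FI and 2 were 2-fold below it.

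The last 6 lay on chromosomes 8 and 9. The run at Sobic.008G004700 (chromosome 8, 420428 to 481261) ranged over 0 to 20.4 FPKM at B, against 13.9 to 52.2 FPKM at FI. The strongest row at FI, the row of Sobic.008G005100, Sobic.008G005200 and Sobic.008G005300, had 52.2 FPKM at FI, 20.4 at B, 8.84 at MS and 11.7 at SD, and 3.72 FPKM in D1, 2.46 in D2 and 5.14 in D3. At SD, 2 were at least 2-fold below FI and 2 were within 2-fold of it. At Sobic.008G035600 (chromosome 8, 3283275 to 3385716), 4 rows had 0 to 9.70 FPKM at B, against 1.11 to 85.2 FPKM at FI. Its most abundant member at FI, Sobic.008G036000, had 85.2 FPKM at FI, 9.70 at B, 29.3 at MS and 74.5 at SD, and 0.537 FPKM in D1, 0.0430 in D2 and 6.08 in D3. Among the 4 rows, 2 were 2-fold lower at SD than at FI. In the run at Sobic.008G075200 (chromosome 8, 10977351 to 11220530) the 4 rows had 0.500 to 36.2 FPKM at B, against 6.38 to 76.6 FPKM at FI. The row with the most at FI, Sobic.008G075200, had 76.6 FPKM at FI, 36.2 at B, 42.6 at MS and 32.2 at SD, and 17.7 FPKM in D1, 44.6 in D2 and 35.9 in D3. By SD 2 were within 2-fold of FI and 2 were 2-fold below it. The 4 rows of the run at Sobic.009G078500 (chromosome 9, 10457635 to 10647004) had 0.125 to 18.9 FPKM at B, against 1.95 to 84.4 FPKM at FI. Its leading row, Sobic.009G078500, had 84.4 FPKM at FI, 4.67 at B, 4.34 at MS and 22.2 at SD. At SD, 3 were at least 2-fold below FI and 1 was within 2-fold of it. The run at Sobic.009G172950 (chromosome 9, 52796366 to 52865950) ranged over 0 to 6.98 FPKM at B, against 3.47 to 70.6 FPKM at FI. Its row with the highest FI level, Sobic.009G173300, had 70.6 FPKM at FI, 6.98 at B, 37.0 at MS and 109.8 at SD, and 3.89 FPKM in D1, 1.06 in D2 and 19.6 in D3. Among the 5 rows, 3 were 2-fold lower at SD than at FI. At Sobic.009G195800 (chromosome 9, 54663386 to 54699522), 4 rows had 0.507 to 63.9 FPKM at B, against 9.04 to 149 FPKM at FI. Its most abundant member at FI, Sobic.009G195900, had 149 FPKM at FI, 63.9 at B, 99.2 at MS and 101 at SD, and 89.6 FPKM in D1, 81.0 in D2 and 57.1 in D3. By SD 2 were within 2-fold of FI and 2 were 2-fold below it.

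In the other runs described above some rows were not given in full, and most of these were weak. Sobic.007G214700, of the run at Sobic.007G213800, had 0.0613 FPKM at B, against 3.18 FPKM at FI. Sobic.003G007100, of the run at Sobic.003G006833, had 0 FPKM at B, against 1.48 FPKM at FI. The rows not given at Sobic.001G259100 had 0.207 to 0.312 FPKM at B, against 3.56 to 4.55 FPKM at FI. Those of the run at Sobic.002G261000 had 0.0361 to 2.60 FPKM at B, against 1.53 to 23.1 FPKM at FI. The rows not given at Sobic.010G023200 had 0 to 1.48 FPKM at B, against 1.09 to 23.5 FPKM at FI. Those of the run at Sobic.006G274200 had 1.75 to 49.9 FPKM at B, against 13.7 to 136 FPKM at FI. The rows not given at Sobic.002G285300 had 0.0898 to 0.296 FPKM at B, against 1.58 to 1.68 FPKM at FI. Those of the run at Sobic.002G420100 had 0.119 to 1.46 FPKM at B, against 3.35 to 8.40 FPKM at FI. The rows not given at Sobic.005G217900 had 0.112 to 3.08 FPKM at B, against 1.74 to 22.1 FPKM at FI. Those of the run at Sobic.006G226700 had 2.21 to 6.998 FPKM at B, against 8.54 to 21.6 FPKM at FI. In 3 runs described above for single members, at Sobic.001G406300, Sobic.002G416250 and Sobic.010G156100, the other rows were weak as well. In the run at Sobic.001G406300 (chromosome 1, 69064227 to 69137916) the other 3 rows had 0.0152 to 1.79 FPKM at B, against 3.16 to 8.34 FPKM at FI, and stayed at 0.131 to 1.71 FPKM at SD. In that at Sobic.002G416250 (chromosome 2, 76348997 to 76410399) the other 2 rows had 0 to 3.96 FPKM at B, against 1.27 to 9.21 FPKM at FI. The run at Sobic.006G226700 (chromosome 6, 57167815 to 57212214) held Sobic.006G226700 itself, with 137 FPKM at FI, 56.1 at B, 22.9 at MS and 34.8 at SD, which was 1 of the more abundant members and nearly level over drought, with 52.3 FPKM in D1, 53.9 in D2 and 52.9 in D3. At Sobic.010G156100 (chromosome 10, 45980506 to 46191022), the other 3 rows had 0 to 0.383 FPKM at B, against 1.22 to 9.11 FPKM at FI, and 2.36 to 6.86 FPKM at SD.

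Across all members, the later stages can be set beside B and FI only as a description, since those differences share a column with the rule. No stage was lower than B in 134 members, MS was lowest in 52 and SD in 12. FI was the highest stage in 150 members, SD in 42 and MS in 6. Among the 2827 other rows low at B, B was lowest in 1742 and FI highest in 2252. Among all 17167 rows in order these counts were 4259 and 5662. Levels were higher at each step from B to MS to SD in 98 members and lower at each step in 6, which was not counted for other rows. At SD compared with FI, 104 members (52.5%) were 2-fold lower, 82 were within 2-fold and 12 were 2-fold higher, beside 16.2% of all rows lower and 11.2% higher. Directly after B, 54 members (27.3%) were 2-fold higher at MS and 7 (3.54%) 2-fold lower, beside 7.74% and 6.51% of all rows. The rows that were 2-fold lower at B outside the runs were in 56.1% of cases still 2-fold lower at SD. Runs did not move as blocks in this respect: all members were 2-fold lower in 3 runs, no member was 2-fold lower in 3, and the others were mixed.

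The comparison of SD with MS shares no column with the B minus FI difference of the rule. All 4 stages did enter the expression filter and the choice among overlapping loci. At SD, 53 of 198 members (26.8%) were 2-fold higher than at MS and 6 (3.03%) 2-fold lower. Over all rows in order 6.53% were 2-fold higher and 4.37% 2-fold lower. Among the other rows that were 2-fold lower at B, 16.6% were higher and 2.94% lower, so a share above the background was found for rows low at B both inside and outside the runs. With a pseudocount of 5 FPKM, 8 of the 21 members then found were 2-fold higher at SD, and with 0.1 FPKM 109 of 348. The share over all rows was not recomputed with these pseudocounts. The median change was 0.43 for the members, 0.21 for the other low rows and 0.02 over all rows. Members were weaker than the median row, with a median of 3.76 FPKM at MS compared with 9.88 over all rows and 2.999 for the other low rows. The 53 higher members lay in 27 of the 45 runs. In 19 runs every member was higher at SD than at MS by any amount, and in 2 every member was lower. Of the 198 members, 153 were higher by any amount, and 8896 of all 17167 rows. How often other stretches of adjacent rows all moved 1 way was not counted. Leaving aside Sobic.002G324200 with its listed 0 at MS, the largest increases were 4.46 for Sobic.006G025900, 4.33 for Sobic.002G416600 and 3.75 for Sobic.006G025400. The largest decreases were -1.49 for Sobic.009G115500, -1.47 for Sobic.009G115300 and -1.45 for Sobic.002G237600, the last with 3.04 FPKM at FI, 0.956 at B, 4.97 at MS and 1.19 at SD, and 0.710 FPKM in D1, 1.48 in D2 and 1.09 in D3.

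The drought table comes from other plants and was not used to choose the members. Of the 198 members, 190 were found in it by name and 123 of these (64.7%) reached 1 FPKM in a drought column, beside 88.4% of all matched rows and 65.9% of the other rows low at B. The 67 matched members under 1 FPKM enter no count below, and 12 of them were listed at 0 in all 3 columns. A member that passed only through its highest drought column is more likely to differ between columns. The same holds for the background rows, but the sets differ in level. Measured members had medians of 3.81 FPKM in D1, 2.74 in D2 and 5.56 in D3. Over all measured rows these were 13.5, 12.9 and 13.4 FPKM, and for the other rows low at B 5.26, 4.13 and 5.69 FPKM. How many rows of each set passed through a single column was not counted. All members reached 1 FPKM in 8 runs, and none did in 2, those at Sobic.005G230000 and Sobic.007G213800.

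From D1 to D2, members were lower more often than higher. In D2 25 of 123 measured members (20.3%) were 2-fold lower than in D1 and 6 (4.88%) 2-fold higher, beside 6.09% and 4.52% of all measured rows. The other rows low at B gave 15.9% and 6.04%. The lower members were found in 18 runs. From D2 to D3 the direction was the opposite. In D3 31 members (25.2%) were 2-fold higher than in D2 and 3 (2.44%) 2-fold lower, beside 3.9% and 0.89% of all measured rows, and 14.8% and 3.24% of the other rows low at B. These 2 comparisons have the D2 column in common, so a low value there enters both. The measured members were also weaker than all measured rows, so these shares compare rows of unlike level. Medians were -0.21 for D2 minus D1 and 0.25 for D3 minus D2, against 0.01 and -0.01 over all measured rows. In 13 members D2 was 2-fold below both D1 and D3, all 4 rows of the chromosome 7 run at Sobic.007G077001 among them. The same count was not made for all measured rows or for the other rows low at B.

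The 31 members that were higher in D3 than in D2 lay in 16 runs. The chromosome 6 run at Sobic.006G025400 and the chromosome 7 run at Sobic.007G077001 gave 4 each, and 23 lay elsewhere. Of the 26 runs with at least 3 measured members, 3 had all of them 2-fold higher in D3 than in D2: these 2 and the chromosome 10 run at Sobic.010G023200. In the chromosome 6 run, Sobic.006G025800, Sobic.006G025900 and Sobic.006G026000 reached 1 FPKM in D3 alone. They were thus measured only through the column where they are high, and the count for that run rests in part on the filter. Of the same 31 members, 26 were also 2-fold higher at SD than at MS, while 40 of all 123 members measured in drought were. Neither this overlap nor whole stretches moving together was counted for rows outside the runs, so neither can be called particular to the runs. At D3 compared with D1, 29 members (23.6%) were 2-fold higher and 8 (6.50%) 2-fold lower, beside 5.08% and 3.3% of all measured rows and 11.3% and 8.35% of the other rows low at B. The largest increases were 8.78 for Sobic.006G025900, 6.93 for Sobic.006G026000 and 6.07 for Sobic.006G026100. Outside that run the largest was 3.22, for Sobic.002G261100.

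**Figure D5:**
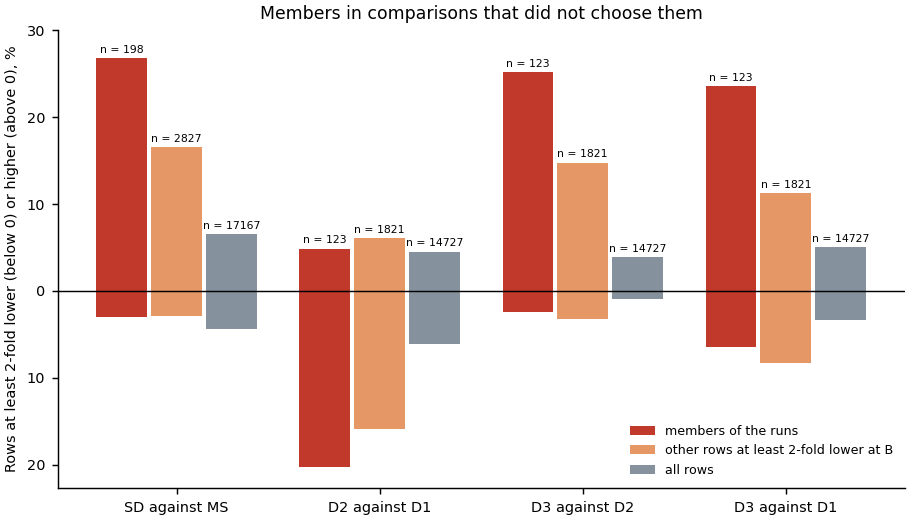
Share of rows at least 2-fold higher (bars above 0, in %) or lower (bars below 0, in %) in 4 comparisons. Bars are given for the members, the other rows at least 2-fold lower at B and all rows, with the number of rows above each bar. The comparisons share no column with the B minus FI difference of the rule. For SD against MS, the bars above 0 stand at 26.8%, 16.6% and 6.53%. For D3 against D2 they stand at 25.2%, 14.8% and 3.9%.

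Of a known sorghum gene cluster, 1 gene was looked at with the same rule. Sobic.001G012300, known from published work as CYP79A1, which starts the pathway to dhurrin, a cyanogenic glucoside of sorghum, had 51.4 FPKM at FI, 3.06 at B, 7.44 at MS and 34.6 at SD. Its change at B was -3.69, but the expressed rows directly before and after it, Sobic.001G012200 and Sobic.001G012400, had changes of 0.96 and 0.57. It was therefore in no run. The second expressed rows before and after it, Sobic.001G012100 and Sobic.001G012500, had changes of -0.17 and -1.14. Which other rows belong to the cluster was not determined, so the cluster as a whole was not tested. As a check of tissue, the dry-stalk NAC gene Sobic.006G147400, named in published work for its role in stem pith, had 158 FPKM at B and 8.53 at FI, and the cellulose synthase gene Sobic.002G118700 had 82.1 FPKM at B and 569.9 at FI. Both genes were thus expressed in these internodes, and moved in opposite directions. Markers of leaf, dividing tissue, grain and panicle were to be found by gene descriptions and were not analysed here, so the part of other tissues in these differences was not tested.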

How the data were processed

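RNA of middle internodes was sequenced after stranded total RNA library preparation, per the labels' protocols. Tools listed in the submitters' processing notes are HISAT2 2.0.5, Bowtie2 2.2.9, cutadapt 1.8.1 and Cuffdiff. The FPKM values were deposited by the authors as 1 column per group in 2 tables, development and drought, per the file headers. The way a group's 2 samples became 1 value, and the genome build, are not given in the sources used here. No read counts were used, so depth is unknown and no interval can be given. Columns of values left unused numbered 0.

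Changes were computed as differences of log2(FPKM + 1), with pandas 2.3.3 and numpy 2.4.6 under Python 3.11.15 (figures with matplotlib 3.10.9), and 2-fold means at least 1 on that scale. Rows under 1 FPKM in every column of a table were left out. Drought rows were matched by name, where a name stood once in each table. With 1 value per group no test was run. The search for runs was tested on simulated data.

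The members and lists were chosen with earlier results of these data known. Full values are given for members of the longest runs, of the runs with the largest summed FPKM at FI and with the largest changes, a rule written with those results known. Other members named individually were chosen after their values were seen. Alternatives were the pseudocount, the filter on low values, the scaling between columns, the shortest run, overlapping and unnamed rows and the threshold. Of the members' identifiers, 0 were matched in the RefSeq gene table. Protein likeness, strand, promoters and lists built on gene descriptions were not analysed here.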

Additional observations from a re-analysis of the deposited data

How the results depend on the processing

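Of 122 recomputed values, 69 were within 1.5 times (counts) or 0.1 (log2) of the reported value, 53 were outside and 0 changed sign. The size of the set depended on the pseudocount and on the filter on low values. With a pseudocount of 0.1 FPKM there were 348 members in 77 runs, with one of 5 FPKM 21 in 5, with no filter on low values 72 in 16, and with only rows averaging 5 FPKM or more 54 in 12. Quantile normalization gave 107 members in 25 runs, of which 103 were among the 198. It moved the median of all rows to 0.12 and the rows past 2-fold to 2524 lower and 2053 higher (55.1% lower), beside 3025 and 1604 (65.3%) as deposited. Median ratio rescaling gave 185 members in 42 runs, all among the 198. Runs of 3 rows or more numbered 133 with 462 members and those of 5 or more 13 with 70, while a threshold of -1.5 left 8 runs with 34.

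Each set of members has its own size and its own later counts. The sets held 348 members with a pseudocount of 0.1 FPKM, 21 with 5 FPKM and 54 for rows averaging 5 FPKM or more. Shares over all rows in the later comparisons were not recomputed under these settings. In the order pseudocount of 0.1 FPKM, pseudocount of 5 FPKM and rows averaging 5 FPKM or more, the members 2-fold higher at SD than at MS numbered 109, 8 and 22, and those lower 16, 0 and 2. In the same order, D2 against D1 gave 54, 6 and 11 lower and 15, 0 and 1 higher. D3 against D2 gave 48, 7 and 14 higher and 12, 0 and 0 lower, and D3 against D1 gave 45, 4 and 11 higher and 26, 0 and 2 lower. With no filter, SD against MS gave 30 higher and 3 lower, D2 against D1 gave 12 lower and 1 higher, D3 against D2 gave 0 lower and D3 against D1 gave 2 lower. Median ratio rescaling gave 3 members lower at SD than at MS. Quantile normalization gave 1 lower there, and 16 lower and 1 higher in D2 against D1. The median of SD minus MS was 0.32 with a pseudocount of 5 FPKM, 0.70 with no filter and 0.77 for rows averaging 5 FPKM or more. The cause of these shifts was not tested beyond the change in which rows are compared.

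Chosen after seeing the data were 4 further alternatives. Without rows listed at 0 at FI or B there were 166 members in 37 runs, and without rows of several gene models 188 in 43. Leaving out the chromosome 6 run at Sobic.006G025400 or the chromosome 7 run at Sobic.007G077001 moved no count by over 1.5 times, and each left 27 members higher in D3 than in D2. Leaving out a replicate was not possible with 1 value per group. No paired analysis was possible because the columns carry no replicate number. The unknown depth limits what the lowest values can show.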
